A study of Sorghum bicolor with 12 samples.

Results

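The genes described here are the phenylalanine ammonia-lyase (PAL) family of sorghum, Sorghum bicolor, read in root RNA. The family was taken as a fixed list of 8 gene identifiers, and 6 of the 8 are among the 20818 identifiers of the deposited count table. Sobic.001G160500 and Sobic.004G220600 are not in the table and are not analysed here. By the numbering of the identifiers, 4 of the 6 measured genes belong to a run of neighbours on chromosome 4 (Sobic.004G220300, Sobic.004G220400, Sobic.004G220500 and Sobic.004G220700) and 2 are neighbours on chromosome 6 (Sobic.006G148800 and Sobic.006G148900). The tables used here give these identifiers no product name, so the family name comes from the list itself.

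PAL removes the amino group from phenylalanine and releases cinnamic acid. This is the entry step of phenylpropanoid metabolism, the route to the lignin of water-conducting vessels and root barriers, to flavonoids and to many soluble phenolics. Plants carry several PAL genes, and some enzymes of the family in grasses also act on tyrosine.

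The study compared NIL-bri1-72, which carries a single nucleotide change in the ectodomain of SbBRI1, the receptor for brassinosteroid hormones, with NIL-WT-72, which lacks it. Both are BC2F3 plants from chemical (EMS) mutagenesis that the submitters took to be near-isogenic. With 1 line per genotype, the receptor change and any other differing segment cannot be told apart. Roots were taken from mature plants kept in water or held at 30% of field capacity, with 3 biological replicates in each of the 4 groups. The series title links drought tolerance of the receptor mutant to phenylpropanoid metabolism, and the design asks for early targets of SbBES1, a transcription factor of the brassinosteroid pathway, in drought. Levels are given as CPM, the read count relative to a library total scaled by TMM, which corrects for differences in RNA composition. Gene lengths were not used, so levels of different genes are not ranked against each other.

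Library totals lay between 18640601 and 33296273 counts, and the 6 PAL genes together held between 0.259% and 0.413% of them. NIL-WT-72 water replicate 1, called the divergent library below, stood apart on the second principal component (61.8; NIL-WT-72 drought replicate 3 followed at 23.2). Results that rest on it are given with and without it. The tissue label was not checked against marker genes, because the identifiers carry no names.

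**Figure D1:**
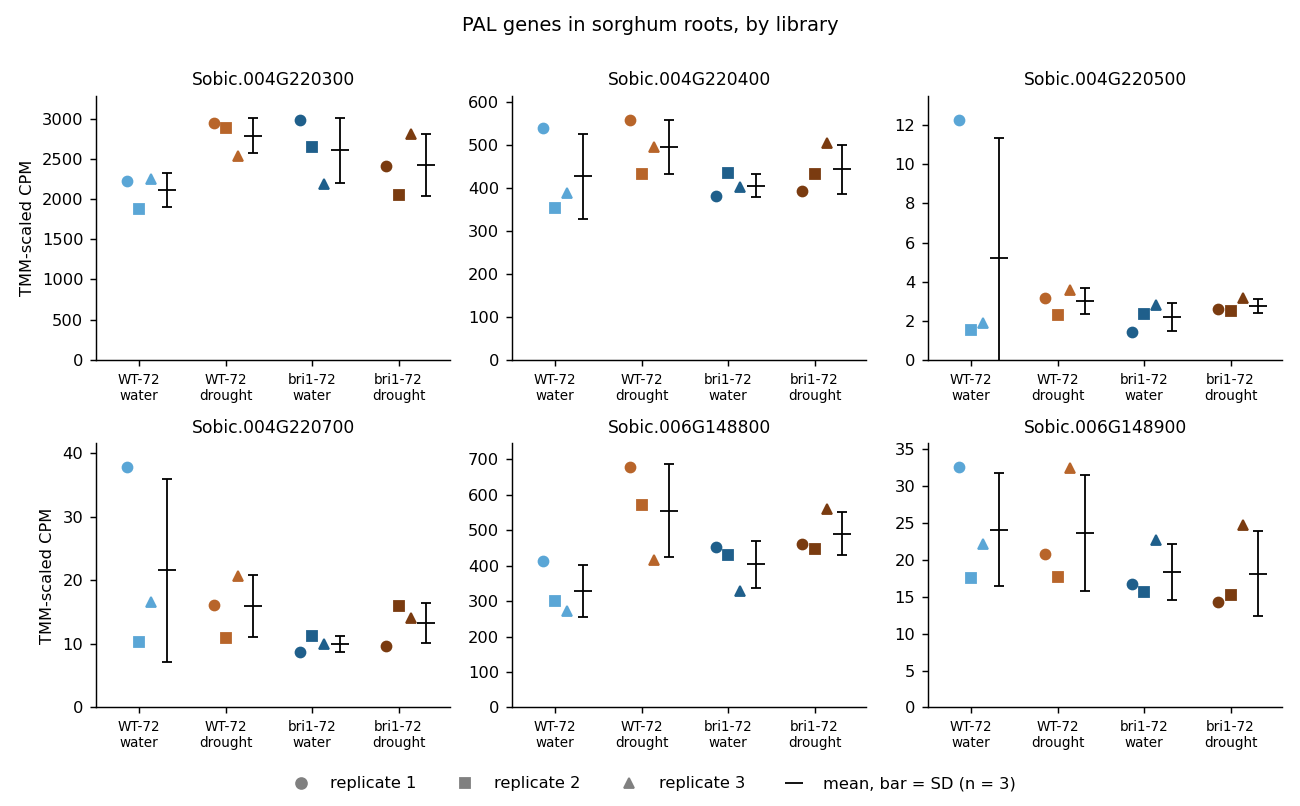
Level of each of the 6 measured PAL genes in TMM-scaled CPM (y axis, from 0) in the 4 groups (x axis), with replicates as symbols and mean and SD as a bar (n = 3; the bar of Sobic.004G220500 in watered NIL-WT-72 is cut at 0). Droughted lies above watered NIL-WT-72 for Sobic.004G220300 and Sobic.006G148800, and the divergent library is far above the others for Sobic.004G220500 at 12.3 CPM.

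The drought response was compared within each line first. Of the 6 genes, 0 passed the threshold in either line (quasi-likelihood test of edgeR, with a Benjamini-Hochberg adjusted p below 0.05 over all genes required). Few genes of any kind were called, 0.0144% of all genes for NIL-WT-72 and 0% for NIL-bri1-72. An unadjusted edgeR p below 0.05 was reached by 2 of the 6 genes in NIL-WT-72, Sobic.004G220300 and Sobic.006G148800, against 9.45% of all genes. In NIL-bri1-72 it was reached by 0 of the 6, against 7.29% of all genes. Same-numbered libraries of NIL-bri1-72 deviated together across genes, and a fit of that line alone with the replicate as a block was added after seeing the data. There 1 of the 6, Sobic.004G220700, had an unadjusted edgeR p below 0.05, against 10.8% of all genes. Its log2 fold change in the blocked fit was 0.39 (adjusted p = 0.410, edgeR). In that line 3 of the 6 genes, Sobic.004G220500, Sobic.004G220700 and Sobic.006G148800, were higher under drought in all 3 same-numbered pairs and 0 were lower in all 3, against 15% and 16.9% of all genes. NIL-WT-72 was not taken as paired, but there Sobic.004G220300, Sobic.004G220400 and Sobic.006G148800 were likewise higher in each same-numbered droughted library. The share of all genes for that line was not computed. Positive log2 fold changes were found for 3 of the 6 genes in NIL-WT-72 and 4 of the 6 in NIL-bri1-72, against 49.1% and 49.9% of all genes. These are whole roots, in which fewer cells of a type and less RNA per cell cannot be told apart.

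Sobic.006G148800, of the chromosome 6 neighbours, showed the clearest difference between regimes. In watered NIL-WT-72 its replicates were at 413, 302 and 273 CPM, and under drought at 678, 571 and 418 CPM. The watered NIL-bri1-72 replicates were at 454, 429 and 329.7 CPM, and the droughted ones at 463, 448 and 561 CPM. The regimes did not overlap in NIL-WT-72, although the lowest droughted library and the highest watered one nearly touched, and they overlapped in NIL-bri1-72.

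In NIL-WT-72 the droughted replicates lay wholly above the watered ones for 2 of the 6 genes, Sobic.006G148800 and Sobic.004G220300, and for 6.67% of all genes. They lay wholly below for 0 of the 6 and for 5.64% of all genes. In NIL-bri1-72 the regimes overlapped for all 6, while 5.75% of all genes lay wholly above and 6.42% wholly below. For Sobic.006G148800 the mean in NIL-WT-72 was 555 ± 131 CPM in drought and 329 ± 74.1 CPM in water (SD, n = 3). The fitted ratio was 1.69 (95% interval 1.23 to 2.32), or 0.75 on the log2 scale with an SE of 0.21 (adjusted p = 0.291, edgeR). This log2 fold change exceeded in size that of 94.2% of all genes. In NIL-bri1-72 it was 0.28 with an SE of 0.21 (95% interval -0.17 to 0.74, adjusted p = 0.829, edgeR).

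Whether Sobic.006G148800 counted as changed depended on the test and on the libraries. In NIL-WT-72 it passed under 3 of 24 alternatives. DESeq2 gave an adjusted p of 0.0457, calling 1.47% of all genes, and limma voom with quality weights gave 0.0285, calling 1.48%. Leaving out the divergent library together with NIL-WT-72 drought replicate 3 gave a log2 fold change of 1.11 (adjusted p = 0.0353, edgeR), with 0.961% of all genes called. This alternative was chosen after seeing the data. It removes this gene's highest watered value (413 CPM) and lowest droughted value (418 CPM) in that line, which by itself widens the gap. Over all 24 alternatives the adjusted p of Sobic.006G148800 ran up to 1.00, and its log2 fold change stayed positive, between 0.58 and 1.11.

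Averaged over both lines, the drought log2 fold change of Sobic.006G148800 was 0.52 with an SE of 0.15 (adjusted p = 0.124, edgeR). Of the 6 genes 0 were called by edgeR in this contrast, against 1.28% of all genes, and 1, Sobic.006G148800, had an unadjusted edgeR p below 0.05, against 14.9%. The averaged value was above 0 for 3 of the 6 and for 50.2% of all genes. Sobic.006G148800 passed under 4 of 22 alternatives, namely DESeq2 (adjusted p = 0.0243), voom with quality weights (0.0339), without the divergent library (0.0472) and without it and NIL-WT-72 drought replicate 3 (0.0147). The shares of all genes called by these were 4.93%, 4.79%, 2.71% and 4.48%. Without any other single library it did not pass. Leaving out both NIL-WT-72 libraries was an alternative chosen after seeing the data.

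Sobic.004G220300, the first of the chromosome 4 run, had droughted replicates wholly above the watered ones in NIL-WT-72 and among them in NIL-bri1-72. In the former it stood at 2226, 1872 and 2247 CPM in the watered replicates and at 2942, 2884 and 2535 CPM in the droughted ones. For NIL-bri1-72 the watered values were 2984, 2648 and 2180.5 CPM and the droughted values 2412, 2049 and 2808 CPM. The highest of the 12 libraries was a watered one of NIL-bri1-72.

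For Sobic.004G220300 the fitted ratio of drought to water in NIL-WT-72 was 1.32 (95% interval 1.02 to 1.70), or 0.40 on the log2 scale with an SE of 0.17 (adjusted p = 0.502, edgeR). It lay between 0.32 and 0.54 under 24 alternatives, and the lowest adjusted p among them was 0.0659 (voom with quality weights). In NIL-bri1-72 the log2 fold change of Sobic.004G220300 was -0.10 with an SE of 0.17 (95% interval -0.47 to 0.26, adjusted p = 0.936, edgeR). Its sign there is not fixed, since leaving out water replicate 1 of NIL-bri1-72 gave 0.0039.

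Sobic.004G220400, the next gene along the run, showed smaller differences. Its watered NIL-WT-72 replicates were at 540.2, 354 and 387 CPM and its droughted ones at 558, 432 and 495 CPM. Watered NIL-bri1-72 gave 381, 435 and 401 CPM, and droughted NIL-bri1-72 gave 393, 433 and 504 CPM. The regimes overlapped in both lines. The log2 fold change was 0.21 (95% interval -0.15 to 0.58) in the former line and 0.13 (-0.24 to 0.49) in the latter, with edgeR adjusted p of 0.751 and 0.921. Without the divergent library the NIL-WT-72 value of Sobic.004G220400 was 0.42 (adjusted p = 0.241, edgeR).

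The other 3 genes had fewer reads, and their values in NIL-WT-72 turned on single libraries. Sobic.004G220500 was counted 316, 29 and 44 times in watered NIL-WT-72 and 91, 72 and 97 times in droughted NIL-WT-72. In CPM these were 12.3, 1.53 and 1.89 for water and 3.16, 2.29 and 3.58 for drought. Its NIL-bri1-72 values were 1.42, 2.36 and 2.79 CPM when watered and 2.59, 2.52 and 3.17 CPM when droughted. The divergent library was thus 3.43 times as high as the next, while the other 11 libraries lay between 1.42 and 3.58 CPM. It was at least 2-fold above each of the other 11 libraries for 1.76% of all genes.

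For Sobic.004G220500 the drought log2 fold change in NIL-WT-72 was -0.81 with an SE of 0.64 (adjusted p = 0.755, edgeR). Without the divergent library it was 0.81 (adjusted p = 0.285, edgeR). The value in NIL-bri1-72 was 0.34 with an SE of 0.65 (adjusted p = 0.950, edgeR).

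Sobic.004G220700, the last of the run, was high and low in the same NIL-WT-72 libraries. The watered replicates were at 37.8, 10.3 and 16.6 CPM and the droughted ones at 16.1, 10.9 and 20.7 CPM. Those of NIL-bri1-72 were at 8.72, 11.2 and 9.97 CPM when watered and at 9.73, 15.9 and 14.1 CPM when droughted. The regimes overlapped in both lines. The drought log2 fold change of Sobic.004G220700 in NIL-WT-72 was -0.45 with an SE of 0.40 (adjusted p = 0.795, edgeR), and 0.24 without the divergent library. In NIL-bri1-72 it was 0.41 with an SE of 0.40 (adjusted p = 0.881, edgeR).

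Sobic.006G148900, the neighbour of Sobic.006G148800, had no such difference between regimes. It stood at 32.6, 17.6 and 22.1 CPM in watered and 20.8, 17.7 and 32.5 CPM in droughted NIL-WT-72. The NIL-bri1-72 replicates gave 16.8, 15.6 and 22.7 CPM when watered and 14.3, 15.3 and 24.7 CPM when droughted. The 4 group ranges overlapped. The drought log2 fold change of Sobic.006G148900 was -0.029 (95% interval -0.69 to 0.63) in NIL-WT-72 and -0.020 (-0.68 to 0.64) for NIL-bri1-72, with edgeR adjusted p of 0.988 and 0.996. In NIL-WT-72 it was 0.25 without the divergent library and -0.33 without drought replicate 3.

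The divergent library was the highest of the 12 for 3 of the 6 PAL genes, Sobic.004G220500, Sobic.004G220700 and Sobic.006G148900, and for 12.8% of all genes. For the same 3 genes NIL-WT-72 drought replicate 3 came next, an order seen for 2.76% of all genes. For Sobic.006G148900 the order depends on the scaling. The divergent library and drought replicate 3 were nearly equal there, at 32.57 and 32.54 CPM. On raw library totals drought replicate 3 was the higher of these libraries (33.0 against 31.8 CPM). These are the libraries at the high end of the second principal component, and the part this plays in the values of the 3 genes was not tested.

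**Figure D2:**
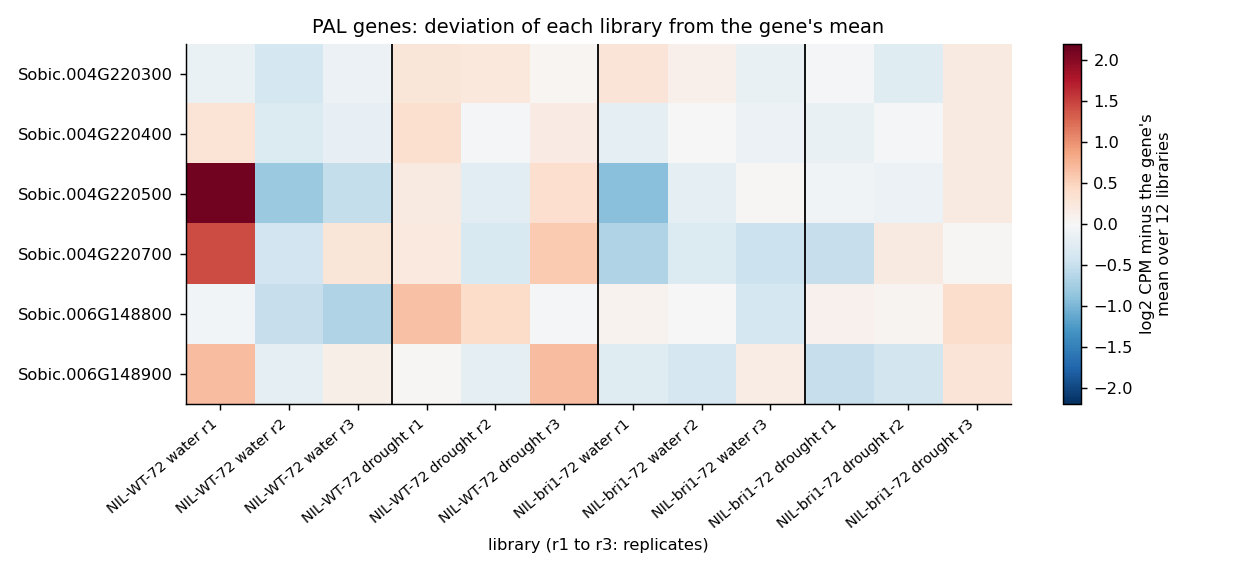
Deviation of each library (x axis, by line and regime) from the gene's mean over 12 libraries, in log2 CPM with a prior count of 2 (colour), for the 6 PAL genes (y axis). The divergent library, at the left edge, is darkest red for Sobic.004G220500 and next for Sobic.004G220700, and near 0 for Sobic.006G148800, where it was at 413 CPM.

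The lines were then compared within each regime. In water 0 of the 6 genes were called by edgeR or limma voom and 0 of 5 by DESeq2, which gave Sobic.004G220500 no p in any contrast, and edgeR called 0% of all genes. The log2 difference, NIL-bri1-72 minus NIL-WT-72, was above 0 for 2 of the 6 and for 48% of all genes. An unadjusted edgeR p below 0.05 was reached by 1 of the 6, against 5.24% of all genes. That gene was Sobic.004G220700, at 9.96 ± 1.24 CPM in NIL-bri1-72 against 21.6 ± 14.4 CPM in NIL-WT-72 (SD, n = 3). Its log2 difference was -1.12 with an SE of 0.41 (adjusted p = 0.888, edgeR), and -0.44 without the divergent library (adjusted p = 0.835, edgeR). For Sobic.004G220500 the same comparison gave -1.28 with an SE of 0.65 (adjusted p = 0.888, edgeR), and 0.34 without that library.

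Sobic.004G220300 and Sobic.006G148800 had higher means in watered NIL-bri1-72 than in watered NIL-WT-72, with overlapping replicates. Sobic.004G220300 was at 2604 ± 403 against 2115 ± 211 CPM (SD, n = 3), a log2 difference of 0.30 (95% interval -0.069 to 0.67, adjusted p = 0.888, edgeR). Sobic.006G148800 was at 404 ± 65.6 against 329 ± 74.1 CPM (SD, n = 3), a log2 difference of 0.30 (95% interval -0.16 to 0.75, adjusted p = 0.898, edgeR). For Sobic.006G148800 the difference was 0.49 without the divergent library.

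In drought 0 of the 6 were called by edgeR or limma voom, 0 of 5 by DESeq2, and 0 of the 6 had an unadjusted edgeR p below 0.05, against 0% and 2.47% of all genes by edgeR. Of the 6 log2 differences 0 were above 0, with a median of -0.19, while 50.8% of all genes were above 0 and their median was 0.0027. The values ran from -0.12 for Sobic.004G220500 to -0.38 for Sobic.006G148900. That of Sobic.004G220500 was 0.015 without NIL-WT-72 drought replicate 3. The lines overlapped for all 6 genes in each regime, whereas NIL-bri1-72 lay wholly above NIL-WT-72 for 6.09% of all genes in water and 3.75% in drought, and wholly below for 4.36% and 2.94%. For Sobic.004G220300 the droughted means were 2423 ± 379.5 CPM for NIL-bri1-72 against 2787 ± 220.2 CPM for NIL-WT-72 (SD, n = 3), a log2 difference of -0.20 (95% interval -0.57 to 0.17, adjusted p = 1.00, edgeR).

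Averaged over both regimes 0 of the 6 were called by edgeR or limma voom and 0 of 5 by DESeq2, and edgeR called 0% of all genes. The averaged line difference was above 0 for 2 of the 6 and for 49.1% of all genes. An unadjusted edgeR p below 0.05 was reached by 1 of the 6, Sobic.004G220700, against 6.49% of all genes. Its averaged log2 difference was -0.69 with an SE of 0.29 (adjusted p = 0.739, edgeR), and -0.35 without the divergent library.

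The difference between the drought effects of the lines was tested by the interaction, the drought log2 fold change of the mutant line minus that of the line without the change. Of the 6 genes 0 were called by edgeR or limma voom, 0 of 5 by DESeq2, and 0 of the 6 had an unadjusted edgeR p below 0.05, against 0% and 1.11% of all genes by edgeR. The interaction was above 0 for 3 of the 6 and for 52.4% of all genes. The lowest unadjusted edgeR p among the 6 was 0.0577, for Sobic.004G220300, whose interaction was -0.50 with an SE of 0.24 (95% interval -1.02 to 0.019, adjusted p = 1.00, edgeR). Under 22 alternatives the interaction of Sobic.004G220300 lay between -0.65 and -0.40. For Sobic.006G148800 it was -0.47 with an SE of 0.29 (95% interval -1.12 to 0.17, adjusted p = 1.00, edgeR) and lay between -0.84 and -0.31 under the alternatives.

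For these genes the estimate of the drought effect was lower in NIL-bri1-72, and the difference did not pass the test. The interaction was 1.15 for Sobic.004G220500 and -0.46 without the divergent library. It was 0.86 for Sobic.004G220700 and 0.18 without that library. For Sobic.004G220400 and Sobic.006G148900 it was -0.085 and 0.0096. The drought contrasts of the lines share no library, whereas the interaction and the line contrasts reuse the same libraries.

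**Figure D3:**
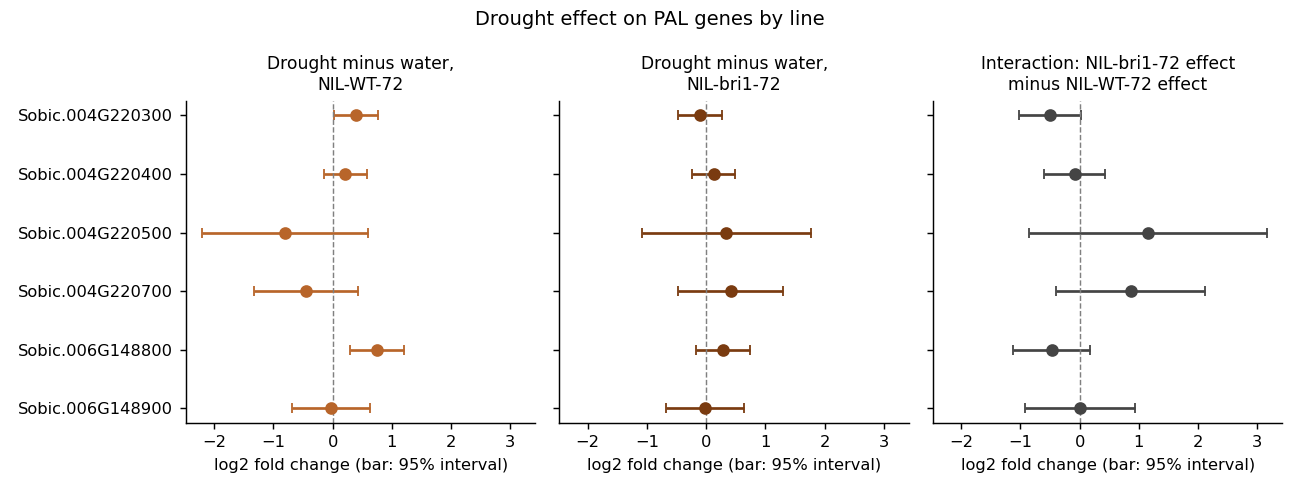
Log2 fold change of drought over water for NIL-WT-72, for NIL-bri1-72, and their difference (the interaction), for the 6 PAL genes, with 95% intervals from the edgeR fit. In NIL-WT-72 the intervals of Sobic.004G220300 (0.029 to 0.77) and Sobic.006G148800 (0.30 to 1.21) lie above 0, and in NIL-bri1-72 and for the difference each interval includes 0.

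The order of the 4 group means differed between the genes. For Sobic.004G220300 it ran from droughted NIL-WT-72 through watered and droughted NIL-bri1-72 to watered NIL-WT-72. Sobic.006G148800 had the same groups at the ends, with droughted above watered NIL-bri1-72 between them. For Sobic.004G220400 droughted NIL-WT-72 came first and watered NIL-bri1-72 last. In Sobic.004G220500 and Sobic.004G220700 watered NIL-WT-72 came first and watered NIL-bri1-72 last, and in Sobic.006G148900 watered NIL-WT-72 came first and droughted NIL-bri1-72 last. Without the divergent library, and with NIL-WT-72 drought replicate 3 kept, droughted NIL-WT-72 came first for each of the 6 genes. The divergent library held the highest watered NIL-WT-72 value of each gene except Sobic.004G220300. Leaving it out by itself lowers that group's mean. Watered NIL-WT-72 was then last for Sobic.004G220500 (1.71 CPM over 2 libraries) and for Sobic.004G220400 (371 CPM). It lay between droughted NIL-WT-72 and droughted NIL-bri1-72 for Sobic.004G220700 (13.5 CPM). For Sobic.006G148900 the first place (23.7 CPM, against 19.9 CPM in watered NIL-WT-72) included drought replicate 3 at 32.5 CPM. The order without both libraries, and the share of all genes with droughted NIL-WT-72 first, were not computed. With all libraries, groups next to each other in the order overlapped in their replicates for each of the 6 genes.

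Neighbouring PAL genes can be alike in sequence, and the sources used here do not say how reads that match several genes were counted, so reads may have been split between or lost from neighbours. Sums over neighbours, which splitting within the sum leaves unchanged, are given with no test. Sobic.004G220600, numbered within the chromosome 4 run, is absent from the deposited counts, so any reads shared with it lie outside the sum. The measured genes of the chromosome 4 run summed to 2569 ± 298 CPM in watered and 3301 ± 234 CPM in droughted NIL-WT-72, and to 3022 ± 395 and 2882 ± 418 CPM for NIL-bri1-72 (SD, n = 3). The chromosome 6 genes summed to 353 ± 81.0 and 579 ± 124 CPM in NIL-WT-72 and to 422 ± 62.0 and 509 ± 67.2 CPM for the other line.

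All 6 together stood at 3262, 2557 and 2948 CPM in watered and 4219, 3917 and 3505 CPM in droughted NIL-WT-72. For NIL-bri1-72 the sums were 3845, 3541 and 2947 CPM when watered and 3294, 2964 and 3915 CPM when droughted. The ratio of mean summed levels, drought over water, was 1.33 for NIL-WT-72 and 0.985 for NIL-bri1-72. The summed level did not overlap between regimes in the former line and overlapped in the latter, as for Sobic.004G220300, which holds most of the reads in the sum.

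The make-up of the family's reads is free of library scaling. Sobic.004G220300 held between 68.2% and 77.6% of the summed PAL count in the 12 libraries; these shares are of reads, not corrected for length. In NIL-bri1-72 its share was 77.6%, 74.8% and 74.0% when watered and 73.2%, 69.1% and 71.7% when droughted. The share of Sobic.006G148800 in that line was 11.8%, 12.1% and 11.2% when watered and 14.0%, 15.1% and 14.3% when droughted.

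In NIL-bri1-72 the regimes did not overlap for either share, that of Sobic.004G220300 being lower and that of Sobic.006G148800 higher under drought. Among all genes, the count divided by the summed PAL count was without overlap upward for 3.48% and downward for 3.32%. PAL genes are part of that sum and the other genes are not, so this background is only a rough guide. The shares of the PAL genes are also tied to each other, and the changes in these shares are not separate results. In NIL-WT-72 the share of Sobic.006G148800 was 12.7%, 11.8% and 9.26% when watered and 16.1%, 14.6% and 11.9% when droughted. That of Sobic.004G220300 was 68.2%, 73.2% and 76.2% and then 69.7%, 73.6% and 72.3%. Both overlapped between regimes. There the same ratio was without overlap downward for 39.9% of all genes and upward for 0.653%. Sobic.004G220400 held 9.90% to 16.6% of the PAL reads, and its share overlapped between regimes in each line.

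**Figure D4:**
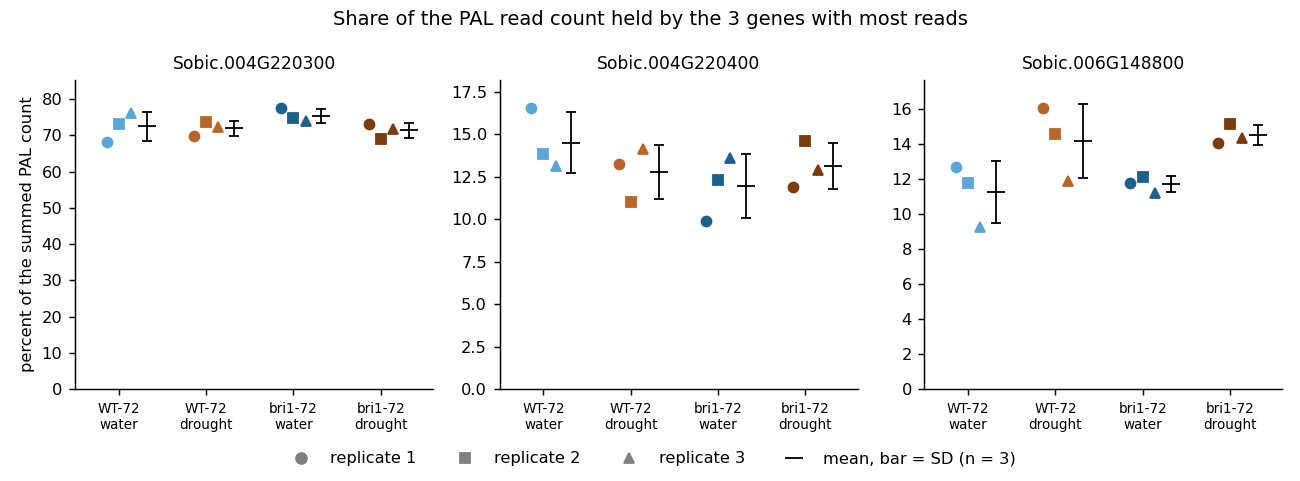
Percent of the summed PAL read count (y axis, from 0) held by the 3 PAL genes with most reads in each library of the 4 groups (x axis), with replicates as symbols and mean and SD as a bar (n = 3). In NIL-bri1-72 the share of Sobic.006G148800 was 11.2% to 12.1% in water and 14.0% to 15.1% in drought.

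Correlations of log2 CPM were computed for all 15 pairs, with two-sided permutation p-values (100000 resamples) adjusted over the pairs by Benjamini-Hochberg. Libraries were permuted without regard to line, regime or the pairing of same-numbered libraries in the mutant line. These p-values therefore cannot separate differences between groups from covariation within groups. Correlations of deviations from the group means, where given below, carry no p. The adjusted p was below 0.05 for 6 of the 15 pairs by Pearson and for 1 of the 15 by Spearman correlation. The share of all gene pairs at this level was not computed. For the 6 Pearson pairs, between 0.163% and 3.88% of all other genes were at least as correlated with a gene of the pair. Sobic.004G220300 varied most closely with Sobic.006G148800 on the other chromosome (Pearson r = 0.75, permutation p = 0.00493, adjusted p = 0.0185; Spearman rho = 0.73, permutation p = 0.00994, adjusted p = 0.0745). Without the 2 libraries farthest from the median of Sobic.004G220300 r was 0.80, and for deviations from the group means it was 0.68. Of all other genes, 0.375% were at least as correlated with Sobic.004G220300, and 2.95% with Sobic.006G148800.

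With its neighbour Sobic.004G220400 the r of Sobic.004G220300 was 0.40 (permutation p = 0.197, adjusted p = 0.329; Spearman rho = 0.27, permutation p = 0.389, adjusted p = 0.647), and 0.18 without the 2 farthest libraries. It was -0.063 for Sobic.004G220500 (permutation p = 0.868, adjusted p = 0.975; Spearman rho = -0.042, permutation p = 0.906, adjusted p = 0.970) and -0.41 without the 2 farthest. For Sobic.004G220700 it was -0.17 (permutation p = 0.616, adjusted p = 0.840; Spearman rho = -0.13, permutation p = 0.682, adjusted p = 0.787) and -0.37 without the 2 farthest. Without the divergent library the r of Sobic.004G220300 was 0.56 with Sobic.004G220400, 0.22 with Sobic.004G220500 and -0.020 with Sobic.004G220700.

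Sobic.004G220400 varied with Sobic.004G220500, at r = 0.75 (permutation p = 0.00084, adjusted p = 0.0126) and Spearman rho = 0.83 (permutation p = 0.00141, adjusted p = 0.0211). Without the 2 libraries farthest from the median of Sobic.004G220400, one of them the divergent library, r was 0.83. For deviations from the group means it was 0.84. Of all other genes 1.78% were at least as correlated with Sobic.004G220400. With Sobic.004G220700 the r of Sobic.004G220400 was 0.71 (permutation p = 0.00705, adjusted p = 0.0205; Spearman rho = 0.66, permutation p = 0.0216, adjusted p = 0.108). It was 0.61 without the 2 farthest libraries, 0.64 without the divergent library and 0.86 for deviations from the group means. With Sobic.006G148800 the r of Sobic.004G220400 was 0.63 (permutation p = 0.0276, adjusted p = 0.0591), and 0.73 without the divergent library. With Sobic.006G148900 it was 0.60 (permutation p = 0.0395, adjusted p = 0.0741), and 0.48 without the divergent library. Spearman rho was 0.43 and 0.48.

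The highest r of the 15 pairs, 0.85 between Sobic.004G220500 and Sobic.004G220700 (permutation p = 0.00234, adjusted p = 0.0175; Spearman rho = 0.59, permutation p = 0.0491, adjusted p = 0.123), was lower without single libraries. It was 0.58 without the divergent library and 0.44 without the 2 farthest libraries. Between Sobic.004G220700 and Sobic.006G148900 r was 0.75 (permutation p = 0.00371, adjusted p = 0.0185; Spearman rho = 0.62, permutation p = 0.0379, adjusted p = 0.114), 0.63 without the divergent library and 0.38 without the 2 farthest, so it rests in part on those. Between Sobic.004G220500 and Sobic.006G148900 it was 0.68 (permutation p = 0.0082, adjusted p = 0.0205; Spearman rho = 0.62, permutation p = 0.0350, adjusted p = 0.114), 0.52 without the divergent library and 0.51 without the 2 farthest. For deviations from the group means, in which the divergent library is kept, these pairs gave r = 0.87, 0.72 and 0.69 in that order. The neighbours on chromosome 6, Sobic.006G148800 and Sobic.006G148900, had r = -0.092 (permutation p = 0.775, adjusted p = 0.968; Spearman rho = -0.25, permutation p = 0.431, adjusted p = 0.647), and -0.083 without the 2 farthest.

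**Figure D5:**
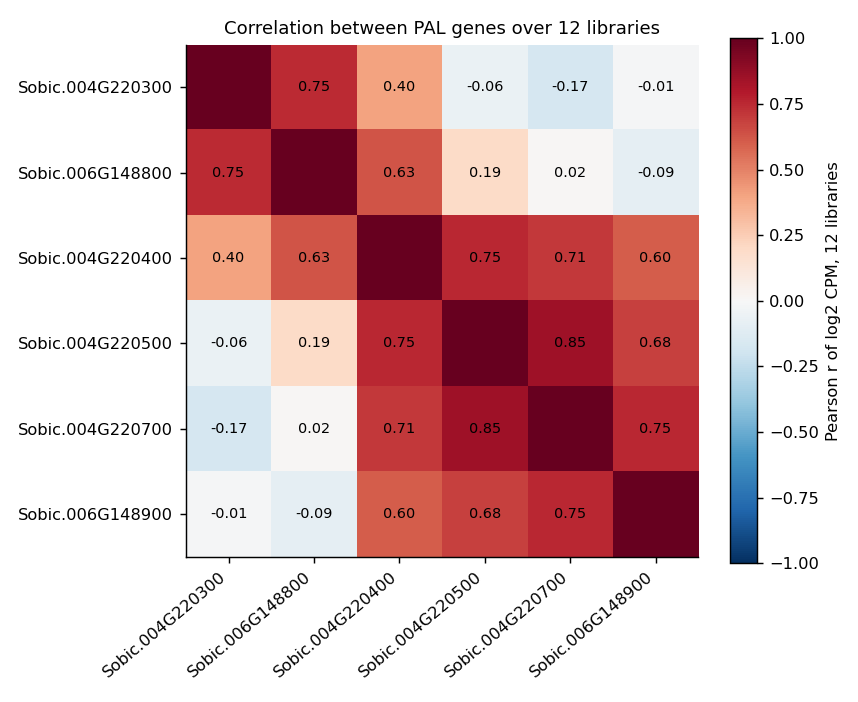
Pearson correlation of log2 CPM over the 12 libraries for each pair of the 6 PAL genes (both axes). Sobic.004G220300 and Sobic.006G148800 reach 0.75 with each other, and the 3 genes with fewest reads reach 0.68 to 0.85 among themselves.

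Within groups the 6 genes differed in spread. The pooled coefficient of variation was 12.7% for Sobic.004G220300, 15.1% for Sobic.004G220400 and 19.3% for Sobic.006G148800, where counting error alone, with reads taken as independent, gives 0.397%, 0.935% and 0.965%. It was 29.8% for Sobic.006G148900, 39.1% for Sobic.004G220700 and 61.8% for Sobic.004G220500, where counting error gives 4.38%, 5.39% and 12.4%. With the watered NIL-WT-72 group set aside it was 23.6% for Sobic.004G220500 and 23.6% for Sobic.004G220700.

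Genes were sought whose pattern was most like the log2 summed PAL level over the 12 libraries. The measure was the Pearson correlation of log2 CPM, among 13280 other genes with a mean of at least 10 CPM. Sobic.004G220300 holds most of the reads in that sum, so this is mainly likeness to that gene. Its own r was -0.063 with Sobic.004G220500, -0.17 with Sobic.004G220700 and -0.0099 with Sobic.006G148900. Without the divergent library these values were 0.22, -0.020 and 0.12. The correlations below are descriptions of genes chosen for them. Sobic.002G266900 was the most alike (r = 0.92), with means of 8.08 ± 1.73 CPM in watered and 14.0 ± 2.74 CPM in droughted NIL-WT-72 and of 10.1 ± 1.27 and 12.7 ± 3.92 CPM for NIL-bri1-72 (SD, n = 3). Sobic.002G074400 came next (r = 0.91), with 22.0 ± 8.07 and 48.2 ± 4.58 CPM in the former line and 29.3 ± 14.1 and 35.6 ± 15.7 CPM in the latter (SD, n = 3). The most opposite were Sobic.001G116100 (r = -0.86) and Sobic.001G324400 (r = -0.84), the former with means of 172.9 and 149 CPM in watered and droughted NIL-WT-72.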

How the data were processed

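The authors deposited raw read counts per gene identifier, with no column outside these 12 libraries. The submitters' processing notes name HISAT2 2.1.0, featureCounts 1.6.2, Trimmomatic 0.38 and FastQC 0.11.2, with build, annotation, strand setting and treatment of reads matching several genes not given in the sources used here. Per the labels' protocols, libraries were stranded and read as pairs of 100 bases. The smallest count per library was 8 to 13 (0.379 to 0.429 CPM), so the table lists only genes above a low level in all libraries. Of its identifiers 0 matched the RefSeq gene table, so pathway lists, promoter motifs and markers were not used, and no sequence is shown.

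Groups and replicate numbers came from sample titles. Counts were fitted with edgeR 4.0.16 in R 4.3.3 (filterByExpr, which kept 20818 genes, TMM scaling, quasi-likelihood test, 4 group means, all 12 libraries, no block), and 7 contrasts were tested. Standard errors are the absolute log2 fold change over the square root of F. The fit was tested on simulated counts. Alternatives used DESeq2 1.42.0, limma 3.58.1, other scalings and filters, thinning, a replicate block and leaving out libraries. Since filterByExpr kept all 20818 genes, the alternative without a filter repeated the main fit, so counts of alternatives include it. They also include leaving out libraries that are not part of a contrast, which enter it only through scaling and the estimate of spread. In NIL-bri1-72 same-numbered watered and droughted libraries deviated together across genes (correlations 0.360, 0.190 and 0.125) and are read as pairs. Those of unlike number reached at most 0.0429. The main values still come from the fit without a block, with the blocked fit as an alternative. In NIL-WT-72 the same-numbered values were also positive, at 0.0940, 0.219 and 0.270. The lowest lay below the 0.121 of water replicate 2 with drought replicate 1. NIL-WT-72 was not taken as paired, though these values do not settle it, and its blocked fit is given as an alternative. Between the lines same-numbered values ran from -0.330 to 0.0998, and those numbers were not taken as pairs. All measured list members are described. Genes named as most like the summed PAL level, or most opposite to it, are the 2 highest and 2 lowest correlations. Members, lists and contrasts were chosen with earlier results of these data known.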

Additional observations from a re-analysis of the deposited data

How the results depend on the processing

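The number of the 6 genes called was 0 in all 7 contrasts. It became 1, always Sobic.006G148800, for drought in NIL-WT-72 and for averaged drought under DESeq2, under limma voom with quality weights and without both NIL-WT-72 libraries that stood apart (water replicate 1, drought replicate 3), an alternative chosen after seeing the data. Leaving out 1 library gave 0 to 1 for averaged drought, with 1 when NIL-WT-72 water replicate 1 was left out, and 0 elsewhere. The replicate block gave 0 in all 7 contrasts, and 0 in each line within its 6 libraries (a fit added after seeing the data). It thus changed no call at the adjusted threshold. For NIL-WT-72, which was not taken as paired, the edgeR adjusted p of Sobic.006G148800 was 0.242 and 0.0693 under these blocks. DESeq2 gave Sobic.004G220500 no p, so its counts cover 5 genes. Over all genes, counts for drought in NIL-WT-72 were 3 by edgeR, 305 by DESeq2, 309 by voom with quality weights, 1 by voom, 1 in a fit of the 6 libraries compared, 2 with the block and 27 with the block within 6 libraries; for drought in NIL-bri1-72 they were 0, 202, 1, 0, 4, 0 and 0; for averaged drought 266, 1023 and 997 by the first 3. Scaling moved the median of all genes by under 0.05.

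Of 42 log2 fold changes, 25 kept their sign under each alternative and 17 did not; the cause was not tested. With upper-quartile scaling Sobic.006G148900 was 0.0068 for drought in NIL-WT-72 and -0.023 for the interaction, and Sobic.004G220700 was 0.0045 for averaged drought. For averaged drought voom gave 0.087 for Sobic.004G220500 and 0.032 for Sobic.004G220700, the replicate block 0.011 and thinning 0.027 for Sobic.004G220700. Thinning gave -0.018 for the interaction of Sobic.006G148900. With quality weights drought in NIL-WT-72 was 0.41, 0.078 and 0.074 for Sobic.004G220500, Sobic.004G220700 and Sobic.006G148900, averaged drought 0.48, 0.26 and 0.074, drought in NIL-bri1-72 0.075 for Sobic.006G148900, and the line difference 0.10 in water for Sobic.004G220400 and 0.019 in drought for Sobic.004G220500.

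With 1 library left out, Sobic.004G220300 ranged from -0.22 to 0.0039 for drought in NIL-bri1-72 and from -0.011 to 0.11 for the averaged line difference, for which Sobic.006G148800 ranged from -0.028 to 0.16. Sobic.004G220400 ranged from -0.19 to 0.13 for the line difference in water and from -0.29 to 0.033 for the interaction. Sobic.004G220500 ranged from -1.24 to 0.81 for drought in NIL-WT-72, -0.45 to 0.58 for averaged drought, -1.70 to 0.34, -0.29 to 0.015 and -0.91 to 0.11 for the line difference in water, in drought and averaged, and -0.46 to 1.58 for the interaction. Sobic.004G220700 ranged from -0.78 to 0.24 for drought in NIL-WT-72 and -0.18 to 0.33 for averaged drought. Sobic.006G148900 ranged from -0.33 to 0.25 and -0.31 to 0.16 for drought in NIL-WT-72 and NIL-bri1-72, -0.18 to 0.12 averaged, and -0.28 to 0.31 for the interaction. Without both libraries that stood apart, Sobic.004G220500 was 0.66 for drought in NIL-WT-72, 0.50 averaged, 0.34, 0.016 and 0.18 for the line differences in water, drought and averaged, and -0.32 for the interaction; Sobic.004G220700 was 0.20 for averaged drought and Sobic.004G220400 0.13 for the line difference in water. Summed levels on raw library totals moved by less than their SD. By Spearman correlation the genes most like the summed PAL level were Sobic.003G011600 and Sobic.006G038200, and Sobic.002G266900 stayed first for deviations from group means. Sobic.004G220500, counted 29 times in its lowest library, is the gene for which depth limits precision most.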
